A study of Mus musculus with 72 samples.

Results

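Neuromuscular electrical stimulation (NMES) of the hind limb was compared with anesthesia alone in the muscle of mice heterozygous for *Kl*, the gene of the KLOTHO protein (KlHET). The members were the 12 muscle libraries labelled KLOTHO HET with NMES and the 12 labelled KLOTHO HET with control treatment, 24 of the 72 libraries of the series. The study's figure legends give fewer KlHET controls than the labels do, and every library labelled as one was used here. The other libraries were 12 muscle libraries of wild-type (WT) mice, 6 NMES and 6 control, and the brain libraries of the same 36 animals. All mice were 2 months old when stimulated or anesthetized. The KlHET mice carried 1 disrupted allele of the strain B6;129S5-Kl tm1Lex/Mmucd, a targeted change on a mixed genetic background, and both KlHET groups carried it. Stimulated mice received 9 mA pulses under 2.5% isoflurane, in 2 sets of 10 stimulations on each leg, at 5 sessions held every other day. Controls of both genotypes were anesthetized for 15 min on the same days and received no current. How long the stimulated mice were anesthetized is not given. Shaving and coating of the legs are described with the stimulation and are not stated for controls. Tibialis anterior and extensor digitorum longus, fast muscles of the shin, were taken 24 h after the last session from mice perfused with buffered saline. Every WT animal code begins with one letter and every KlHET code with another. The labels do not say what the letter marks, and whatever it marks cannot be told apart from genotype. The comparison asked which muscle transcripts followed 5 sessions of stimulation in mice with 1 disrupted *Kl* allele.

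KLOTHO is made mainly in the kidney and in the choroid plexus of the brain. Its membrane form is a co-receptor for the hormone FGF23, and a shed form circulates. NMES drives motor nerves from the skin, so that fibres contract without a voluntary command and fast fibres take a large part of the work. Fast fibres draw their ATP mostly from glycogen and glycolysis, hold few mitochondria, and carry the force of myosin and actin through titin, the M band, the Z disc and desmin to integrins that grip the basal lamina. Repeated contraction is known to change genes of fuel use, of these force-bearing structures and of factors that muscle secretes.

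Expression is given as CPM, read counts of a gene relative to a common library total, scaled between libraries by the trimmed mean of M-values (TMM), and differences as NMES minus control on the log2 scale of CPM + 0.5, a scale that understates changes of genes at low CPM. Gene positions are those of RefSeq on GRCm38.p6, the build of mm10. The 24 libraries held 14.8 to 24.5 M reads, as did the muscle libraries as a whole, and Pearson correlations between muscle libraries ran from 0.950 to 0.990, so no pair of libraries was identical. *Kl* was not analysed here in muscle, so the genotype was looked at in brain. There it ran from 1.93 to 31.1 CPM (median 2.85) in the KlHET controls and from 1.12 to 19.3 CPM (median 2.74) in the KlHET NMES mice, against 1.31 to 6.53 CPM (median 3.25) and 2.41 to 7.48 CPM (median 3.39) in the WT control and WT NMES mice. These ranges overlapped, so *Kl* RNA of the brain did not separate the genotypes, and 20 to 685 reads lay behind a KlHET value. According to the study's methods the brain RNA was taken from prefrontal cortex, while KLOTHO of the brain is made mainly in the choroid plexus. These values could therefore neither show nor refute the genotype. *Xist* exceeded the Y-linked genes in 8 of the 12 stimulated and 7 of the 12 control KlHET libraries, and all 36 animals fell on the same side in both tissues. The transcripts of fast muscle were high in all groups, with *Acta1* (skeletal actin) at 18246 to 28287 CPM (median 20968) in the KlHET controls and *Myh4* (myosin of the fastest fibres) at 12761 to 22684 CPM (median 18262). *Nnt*, which was chosen after its values were seen and which C57BL/6J mice carry in a deleted form, ran from 31.5 to 99.0 CPM in the KlHET controls and 14.1 to 116 CPM in the KlHET NMES mice, against 15.4 to 28.4 CPM over the WT mice, so the KlHET mice differed more among themselves at this gene. Transcripts of the 13 mitochondrially encoded protein genes took 26.3% ± 2.68 (SD, n = 12) of the control reads and 23.7% ± 6.24 (n = 12) of the NMES reads. The share of KlHET NMES replicate 9 was 6.12%, and the other stimulated mice lay between 19.7% and 30.0%. The difference of means was -2.58 percentage points with that library (permutation test of 100000 resamples, 2-sided, p = 0.207) and -0.988 without it (p = 0.418). Described genes whose calls ended without replicate 9 are named with the values by mouse.

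NMES changed a limited set of transcripts in KlHET muscle, most of them upward and most by less than 1.5-fold. Of 13505 genes tested, 87 (0.644%) passed an adjusted p of 0.05 in the limma fit, 65 higher (0.481%) and 22 lower (0.163%). The 65 higher genes had differences of 0.20 to 1.30 (median 0.33) and the 22 lower genes of -0.31 to -1.43 (median -0.50), beside a median of -0.01 over all genes tested. On the scale of CPM + 0.5, *Dlk1* had the highest fold at 2.47 and *Agt* followed at 2.28. *B230312C02Rik*, a transcript without a named product, had the lowest fold at 0.371. These folds include the added 0.5, so they are not plain ratios of CPM and their order can differ from that of such ratios. Only *Agt* had control and stimulated ranges that did not overlap, which 1 gene of all those tested (0.0074%) did. At an unadjusted p under 0.05, 986 genes lay higher and 897 lower where 675 would be counted in all by chance. The count of higher genes leaned on TMM scaling. With libraries scaled to their total reads 17 genes passed higher and 19 lower, 35 of these among the 87. Leaving out 1 KlHET library at a time gave 42 calls (without control replicate 12) to 153 (without NMES replicate 8), and 38 of the 87 passed in all 24 of those fits. Without NMES replicate 9, 71 genes passed, 53 higher and 18 lower. They held 59 of the 87, and 28 calls ended. In the WT mice 2 genes (0.0148%) passed, *Agt* and *Aimp2*.

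Of all genes tested, the one for angiotensinogen gave the smallest p, and among the signalling proteins that rose *Dlk1* had a difference of similar size. *Agt* (chr8:124556587-124569706), which encodes angiotensinogen, from which renin and angiotensin-converting enzyme cut the angiotensin peptides, ran from 6.19 to 11.7 CPM (median 10.3) in the controls and 14.9 to 29.2 CPM (median 20.4) in the stimulated mice. All 12 stimulated mice lay above all 12 controls. The difference was 1.19 ± 0.13 (SE, adjusted p = 4.7e-07), and the WT mice gave 1.07 ± 0.18. No other gene of the renin-angiotensin list was called, 1 of 12 measured members being higher and 0 lower. *Ctsb* (cathepsin B) stood at 0.22 (adjusted p = 0.0581), *Ace* (angiotensin-converting enzyme) at -0.18 and *Prcp*, a peptidase that trims angiotensin II, at -0.44 (adjusted p = 0.145). *Dlk1* (chr12:109452485-109463336), an imprinted membrane and shed protein related to Notch ligands and active in muscle growth and fat cell formation, was low in level, from 0.326 to 1.89 CPM (median 1.07) in the controls and 1.08 to 11.1 CPM (median 2.84) in the stimulated mice. Its difference was 1.30 ± 0.23 (SE, adjusted p = 0.00194), 11 of 12 stimulated mice lay above every control, and 1 of them reached 11.1 CPM. *Serpinb1a*, an inhibitor of the serine proteases of neutrophils, ran from 1.73 to 4.12 CPM (median 2.86) in the controls and 3.11 to 6.92 CPM (median 4.58) in the stimulated mice, a difference of 0.66 ± 0.14 (SE, adjusted p = 0.0183). Secreted factors among the lower genes were *Cxcl12*, a chemokine of stromal cells, at -0.40 ± 0.09, and *C1qtnf9*, a relative of adiponectin, at -0.49 ± 0.12. *C1qtnf9* passed in 8 of the 24 fits with 1 KlHET library left out. Of the 21 measured myokines and secreted factors listed, *Agt* was the 1 that passed, beside a list median of -0.02. *Ostn* (musclin, 0.43 ± 0.25), *Vegfa* (0.26) and *Erfe* (erythroferrone, 0.06 ± 0.16) did not pass.

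*Ifi30* (chr8:70762773-70766663), a thiol reductase of lysosomes that unfolds proteins for antigen presentation, was among the 5 genes with the smallest adjusted p. It ran from 4.42 to 7.16 CPM (median 5.87) in the controls and 6.91 to 18.6 CPM (median 10.4) in the stimulated mice, a difference of 0.85 ± 0.13 (SE, adjusted p = 0.000249), with 10 of 12 stimulated mice above every control. The rest of the antigen presentation and lysosome list did not pass, and its median was -0.07 over 32 genes. *H2-K1* (-0.45) and *B2m* (-0.39), the class I chains, lay lower without passing. Of 12 measured carbonic anhydrases, 2 that sit in the cell membrane rose and 0 fell. *Car14* (chr3:95897768-95905117), a membrane enzyme of muscle, ran from 31.3 to 55.2 CPM (median 36.9) in the controls and 49.7 to 75.3 CPM (median 61.7) in the stimulated mice and differed by 0.60 ± 0.09 (SE, adjusted p = 0.000275). *Car9*, known as a target of hypoxia signalling, was scarce at 0.75 to 2.13 CPM (median 1.20) in the controls and 1.28 to 3.80 CPM (median 2.14) in the stimulated mice and differed by 0.62 ± 0.15 (SE, adjusted p = 0.0454). It passed in 9 of the 24 fits with 1 KlHET library left out. *Car14* and the neighbouring *Aph1a* share 825 bases, and since it is not known whether reads were counted by strand, reads there cannot be told apart. *Aph1a* itself stood at -0.08. *Car9* shares 4 bases with *Tpm2*, which was tested, and 1722 bases with *Arhgef39*, which was not, and the same limit holds there. *Car4*, the enzyme of capillary walls, stood at -0.40 (adjusted p = 0.183).

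The promoters of 4 genes that led the list in either direction are shown so that genes that moved can be compared for shared elements. They are RefSeq sequences of build GRCm38.p6, with the motifs that were searched for in capitals. Those of *Agt*, *Ifi30* and *Fam83d* run from 250 bases before to 50 bases after the annotated start of the gene. The window of *Zfp97* lies wholly inside the gene's span, which begins at chr17:17121108, so bases before that start are not shown. *Ifi30* holds CACGTG, the E-box letters of bHLH factors, once, and *Fam83d* holds TGANTCA, the letters of AP-1 binding, once. None of the searched motifs was found in the windows of *Agt* and *Zfp97*.
Agt, chr8:124569657-124569956 (- strand): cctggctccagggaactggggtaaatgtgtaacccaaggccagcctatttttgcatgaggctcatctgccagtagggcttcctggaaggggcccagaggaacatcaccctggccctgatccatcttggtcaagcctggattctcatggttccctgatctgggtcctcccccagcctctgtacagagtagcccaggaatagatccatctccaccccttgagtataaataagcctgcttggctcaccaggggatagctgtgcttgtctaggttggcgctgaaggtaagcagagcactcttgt
Ifi30, chr8:70766614-70766913 (- strand): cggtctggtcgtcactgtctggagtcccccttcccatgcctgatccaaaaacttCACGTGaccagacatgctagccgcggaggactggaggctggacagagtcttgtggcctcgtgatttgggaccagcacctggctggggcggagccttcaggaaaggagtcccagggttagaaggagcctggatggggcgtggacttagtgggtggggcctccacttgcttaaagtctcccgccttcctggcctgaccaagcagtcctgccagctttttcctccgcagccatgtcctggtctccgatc
Fam83d, chr2:158767849-158768148 (+ strand): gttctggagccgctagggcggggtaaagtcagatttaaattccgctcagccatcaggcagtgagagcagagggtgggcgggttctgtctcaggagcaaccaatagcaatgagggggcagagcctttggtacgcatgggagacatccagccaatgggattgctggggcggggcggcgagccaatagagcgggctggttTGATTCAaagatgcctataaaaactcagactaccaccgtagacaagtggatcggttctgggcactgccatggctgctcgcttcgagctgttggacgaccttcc
Zfp97, chr17:17121133-17121432 (+ strand): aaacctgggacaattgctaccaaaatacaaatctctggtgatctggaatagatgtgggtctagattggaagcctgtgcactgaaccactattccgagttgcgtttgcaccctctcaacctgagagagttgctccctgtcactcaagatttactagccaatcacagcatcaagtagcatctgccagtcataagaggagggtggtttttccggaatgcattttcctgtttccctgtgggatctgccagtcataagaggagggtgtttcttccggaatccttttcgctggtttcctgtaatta
Promoters were found for 48 of the 65 higher genes, for 11 of the 22 lower genes and for 10478 of all genes tested. Both strands were searched. CACGTG was in 18.8% of the higher promoters, in 0% of the lower ones and in 10.3% of all. CAGCTG, the E-box letters of myogenic factors, was in 18.8%, 0% and 15.3%. The MEF2 motif was in 4.17%, 0% and 0.582%, and the CArG box of SRF in 6.25%, 9.09% and 1.3%, so that 2 and 3 promoters of the higher genes held them. Both have an A/T-rich core and can overlap. AAGGTCA, read by estrogen-related receptors, was in 6.25%, 0% and 3.03%, TGANTCA in 8.33%, 9.09% and 4.91%, and GTAAACA, read by FoxO factors, in 2.08%, 0% and 2.47%. These shares describe letters in windows and were not tested.

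Glycolysis held 5 of the 65 higher genes and none of the lower. The list median was 0.18 over 24 genes, beside -0.01 over all genes, and 16 lay above 0. *Aldoa* (chr7:126795234-126800994), the muscle aldolase, ran from 10566 to 14597 CPM (median 12392) in the controls and 13724 to 20466 CPM (median 15947) in the stimulated mice, and 10 of 12 stimulated mice lay above every control, a difference of 0.38 ± 0.06 (SE, adjusted p = 0.000716). *Gapdh* (glyceraldehyde-3-phosphate dehydrogenase) ran from 82.7 to 106 CPM (median 97.5) in the controls and 82.5 to 193 CPM (median 130.1) in the stimulated mice, a difference of 0.45 ± 0.09 (SE, adjusted p = 0.00698). *Gapdh* shares nearly identical sequence with processed pseudogenes, and *Gapdh-ps15* (0.45 ± 0.07) and *Gm12070* (0.44 ± 0.06), both such copies, moved by about the same amount, so how these reads divide is uncertain. *Aldoart1* (0.34 ± 0.08), an aldolase copy derived from *Aldoa*, carries the same doubt. *Pgk1* (phosphoglycerate kinase) differed by 0.34 ± 0.08 (SE, adjusted p = 0.0271), *Pfkm* (the muscle phosphofructokinase that commits sugar to glycolysis) by 0.29 ± 0.06 (SE, adjusted p = 0.0141) and *Ldha* (lactate dehydrogenase A) by 0.26 ± 0.06 (SE, adjusted p = 0.0271). *Pkm*, pyruvate kinase, was just outside at 0.28 (adjusted p = 0.0605). Other forms of these enzymes did not pass and lay on both sides of 0, among them *Hk1* at -0.22, *Pfkp* at -0.13 and *Aldoc* at -0.17. With total-count scaling 2 of the 24 passed, and without control replicate 12, 3. Beside glycolysis, *Stbd1*, which tethers glycogen, rose by 0.50 ± 0.13 (SE, adjusted p = 0.0488), 1 of 16 glycogen genes. *Stbd1* passed in 7 of the 24 fits with 1 KlHET library left out, and passed neither without NMES replicate 9 nor with total-count scaling. *Bsg* (basigin, the partner of lactate transporters) rose by 0.27 ± 0.06 (SE, adjusted p = 0.0261), *Gpt* (alanine aminotransferase, which turns pyruvate into alanine) by 0.39 ± 0.08 (SE, adjusted p = 0.0172), and *Mpi* and *Pmm1*, which route sugar phosphate to mannose, by 0.29 ± 0.07 and 0.33 ± 0.08.

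The gene of the AMP deaminase of muscle fell. *Ampd1* (chr3:103073897-103099720), which turns AMP into IMP when ATP use outruns supply, ran from 701 to 1122 CPM (median 968) in the controls and 511 to 881 CPM (median 642) in the stimulated mice, with 9 of 12 stimulated mice below every control. The difference was -0.51 ± 0.08 (SE, adjusted p = 0.000277), and it was -0.41 ± 0.11 in WT mice. It was the 1 called gene of 25 in the list of purine genes, where *Ampd3* stood at -0.09. None of 6 creatine and phosphagen genes passed, and *Ckm*, the creatine kinase of the fibre, stood at -0.07.

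Some nuclear genes of mitochondrial proteins rose by small amounts, and no gene on mitochondrial DNA was called. *Slc25a4* (chr8:46207168-46211062), the ADP/ATP carrier of muscle, ran from 3657 to 4253 CPM (median 3803) in the controls and 4058 to 6673 CPM (median 4614) in the stimulated mice, with 9 of 12 stimulated mice above every control and a difference of 0.32 ± 0.06 (SE, adjusted p = 0.00749). *Timm44* (0.24 ± 0.05, adjusted p = 0.0159) and *Timm23* (0.27 ± 0.06), which bring proteins across the inner membrane, were also higher, as were *Phb1* (prohibitin, 0.26 ± 0.06), *Pdhb* (the pyruvate dehydrogenase E1 beta subunit, 0.28 ± 0.07), *Mrpl51* (a mitochondrial ribosomal protein, 0.32 ± 0.08) and *Mccc1* (leucine breakdown, 0.50 ± 0.11). *Phb1* passed in 8 of the 24 fits with 1 KlHET library left out. In the respiratory chain list, 2 of 41 nuclear genes passed. They were *Ndufv1* of complex I (0.26 ± 0.06, adjusted p = 0.0433) and *Atp5mc1* of the ATP synthase (0.29 ± 0.07, adjusted p = 0.0482). The list median was 0.13, with 36 of 41 above 0. None passed with total-count scaling, without NMES replicate 9 or without control replicate 12, and 5 passed without NMES replicate 8. None of 18 citric acid cycle genes passed, with a median of 0.17 and *Dlst* highest at 0.25 ± 0.07 (adjusted p = 0.0603). The 13 mitochondrially encoded genes had a median of -0.20, all 13 below 0 and none called, and -0.0016 without NMES replicate 9, whose mitochondrial share is given above. Fatty acid oxidation genes had a median of 0.12 with 21 of 25 above 0 and none called. In WT mice the same genes had a median of -0.13 with 2 above 0, and the difference between genotypes was called for none of them.

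In the sarcomere 4 structural genes rose, 2 myomesins of the M band among them. *Myom2* (chr8:15057653-15133420), the myomesin that cross-links myosin filaments in fast fibres, ran from 704 to 1187 CPM (median 807) in the controls and 1034 to 1995 CPM (median 1305) in the stimulated mice, a difference of 0.64 ± 0.09 (SE, adjusted p = 8.92e-05). Its relative *Myom1* ran from 751 to 994 CPM (median 868) in the controls and 853 to 1454 CPM (median 1052) in the stimulated mice, a difference of 0.32 ± 0.07 (SE, adjusted p = 0.0175). *Ttn*, the giant spring that spans the sarcomere, differed by 0.50 ± 0.12 (SE, adjusted p = 0.0393) and *Xirp2*, an actin-binding protein of the fibre ends and the myotendinous junction, by 0.34 ± 0.07 (SE, adjusted p = 0.0183). These were the 4 called of 36 listed sarcomere genes, none was lower, the list median was 0.21 and 32 lay above 0. With total-count scaling 1 of the 36 passed, and *Ttn* passed in 10 of the 24 fits with 1 KlHET library left out. *Myom3* (0.47), *Ankrd1* (0.70) and *Mybph* (0.74) did not pass. Outside that list, *Des* (desmin, which links neighbouring Z discs) ran from 1674 to 2515 CPM (median 1855) in the controls and 1817 to 2811 CPM (median 2430.3) in the stimulated mice and differed by 0.32 ± 0.07 (SE, adjusted p = 0.0217). *Itga7* (chr10:128933421-128958286), the integrin chain with which fibres hold laminin, had the third smallest p of all genes. It ran from 75.0 to 94.5 CPM (median 85.3) in the controls and 91.2 to 144 CPM (median 120.1) in the stimulated mice, 11 of 12 stimulated mice lay above every control, and the difference was 0.48 ± 0.06 (SE, adjusted p = 2.84e-05). The other 33 integrin and linkage genes did not pass, among them *Dmd* (dystrophin, 0.36), *Vcl* (vinculin, 0.24) and *Itga1* (-0.40 ± 0.17), and the list median was 0.01.

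A pair of contractile genes moved the other way. *Actc1* (chr2:114047282-114052875), the cardiac actin that skeletal muscle expresses in development and growth, ran from 113 to 339.5 CPM (median 227) in the controls and 77.6 to 232 CPM (median 112) in the stimulated mice and differed by -0.88 ± 0.20 (SE, adjusted p = 0.0271), with -1.02 ± 0.28 in the WT mice. *Mylk2*, the kinase of the regulatory myosin light chain, ran from 625 to 1115 CPM (median 758) in the controls and 450.3 to 804 CPM (median 602) in the stimulated mice and differed by -0.37 ± 0.09 (SE, adjusted p = 0.0471). *Mylk2* was the 1 gene of 15 fast fibre genes that passed, and the rest of the list, with *Myh4* at 0.27, *Myh1* at 0.23 and *Myh2* at -0.22, did not. *Mylk2* passed in 8 of the 24 fits with 1 KlHET library left out, and not without NMES replicate 9. The slow fibre list had none called among 11 and a median of 0.11. Its summed level ran from 223 to 1103 CPM in controls and 213 to 1896 CPM in stimulated mice, ranges that overlapped. In calcium handling, *Hrc*, which binds calcium inside the sarcoplasmic reticulum, ran from 556 to 706 CPM (median 627) in the controls and 653 to 995 CPM (median 782) in the stimulated mice, 10 of 12 above every control, a difference of 0.31 ± 0.06 (SE, adjusted p = 0.00465). It was the 1 called of 21 excitation-contraction genes, and it did not pass with total-count scaling. *Saraf*, which limits calcium entry when stores are refilled, rose by 0.21 ± 0.05 (SE, adjusted p = 0.0491). *Atp1b2*, a beta chain of the sodium pump, ran from 152 to 253 CPM (median 180.1) in the controls and 80.2 to 168 CPM (median 147) in the stimulated mice and differed by -0.39 ± 0.10 (SE, adjusted p = 0.0471).

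Some called genes act in autophagy or handle lipids, a grouping made after their values were seen. *Map1lc3a*, an LC3 protein of the autophagosome, ran from 123 to 180.4 CPM (median 141) in the controls and 129 to 228 CPM (median 187) in the stimulated mice and differed by 0.38 ± 0.07 (SE, adjusted p = 0.00664). It was the 1 called of 26 genes listed for atrophy and FoxO, where the ubiquitin ligase *Trim63* stood at -0.08 and *Foxo3* at -0.36. *Tex264*, a receptor that hands endoplasmic reticulum to autophagosomes, rose by 0.23 ± 0.06 and *Ctsf*, a lysosomal protease, by 0.25 ± 0.06. None of 33 proteasome genes passed (median 0.07). *Pnpla2*, the first lipase of stored fat, rose by 0.36 ± 0.09 (SE, adjusted p = 0.0471), *Dgat1*, which makes triglyceride, by 0.37 ± 0.08 (SE, adjusted p = 0.0271) and *Plpp1*, a lipid phosphatase, by 0.37 ± 0.08 (SE, adjusted p = 0.0125), while *Cept1*, which makes phosphatidylcholine and phosphatidylethanolamine, ran from 28.1 to 38.8 CPM (median 31.7) in the controls and 15.7 to 32.5 CPM (median 24.5) in the stimulated mice and fell (-0.36 ± 0.08, adjusted p = 0.0209). *Pnpla2* is also the 1 called gene of 26 adipocyte markers. It passed in 5 of the 24 fits with 1 KlHET library left out, and passed neither without NMES replicate 9 nor with total-count scaling. Those markers had a median of 0.38, 22 of 26 above 0, and their summed level ran from 1947 to 2825 CPM in controls and 2117 to 3102 CPM in stimulated mice. A large part of that sum was *Car3*, with medians of 901 CPM in controls and 924 CPM in stimulated mice. The sum is therefore not a measure of fat alone. *Cfd* (0.90), *Plin1* (0.63 ± 0.40) and *Adipoq* (0.60 ± 0.43), which fat cells rather than fibres express, did not pass, and the part of fat in the lipid results was not tested.

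Among genes of RNA and protein synthesis, *Nsun2* (chr13:69612016-69635780), which methylates cytosines of tRNA, ran from 37.9 to 54.2 CPM (median 45.5) in the controls and 51.4 to 75.2 CPM (median 56.4) in the stimulated mice, a difference of 0.36 ± 0.06 (SE, adjusted p = 0.00157). *Aimp2* (chr5:143902704-143909839), a scaffold of the complex that holds aminoacyl-tRNA synthetases, ran from 99.2 to 157 CPM (median 117) in the controls and 113 to 249 CPM (median 181) in the stimulated mice, with 8 of 12 stimulated mice above every control. Its difference was 0.57 ± 0.11 (SE, adjusted p = 0.00791), and in WT mice it was 1.06 ± 0.16. It was the 1 called of 23 synthetase and scaffold genes, whose median was 0.13 with 18 above 0. *Eprs1* (0.27) and *Hars1* (0.26) came nearest among the others. *Ddx46* (a splicing helicase, 0.25 ± 0.06), *Ddx1* (an RNA helicase of tRNA ligation, 0.23 ± 0.06) and *Med18* (a Mediator subunit, 0.46 ± 0.10) were higher. *Malat1*, a long noncoding RNA kept in the nucleus, rose by 0.39 ± 0.10 (SE, adjusted p = 0.0488). *Rhbdl1*, a rhomboid-like membrane protein, ran from 35.5 to 52.7 CPM (median 40.9) in the controls and 46.0 to 68.6 CPM (median 58.0) in the stimulated mice, a difference of 0.42 ± 0.08 (SE, adjusted p = 0.00352), and *Mettl26*, 38372 bases away on chromosome 17, stood at 0.30 ± 0.06. *Tmem43* of the inner nuclear membrane (0.36 ± 0.09), the deubiquitinase *Otub2* (0.44 ± 0.10) and the clathrin light chain *Cltb* (0.24 ± 0.05) were higher as well. None of 49 cytosolic ribosomal protein genes passed (median 0.08), nor any of 28 initiation and elongation factors (median 0.05) or 36 heat shock and chaperone genes (median 0.05). Control medians of the ribosomal genes ran from 1.18 CPM (*Rpl38*) to 442 CPM (*Rpl4*), so that list mixes members with few and with many counted reads. These are counted levels, and why they differ so widely was not tested.

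The lower genes held several of the nucleus and the mitotic spindle. *Fam83d* (chr2:158768099-158786637), a spindle protein, was scarce, from 0.639 to 4.24 CPM (median 1.88) in the controls and 0.109 to 1.77 CPM (median 0.552) in the stimulated mice, a difference of -1.12 ± 0.22 (SE, adjusted p = 0.00664). *Tpx2* (chr2:152847964-152895321), which nucleates spindle microtubules, ran from 2.04 to 5.61 CPM (median 2.90) in the controls and 1.10 to 3.22 CPM (median 1.71) in the stimulated mice (-0.76 ± 0.16, adjusted p = 0.0158), and 9 of 12 stimulated mice lay below every control. *Orc4*, a subunit of the complex that marks replication origins, ran from 19.2 to 24.6 CPM (median 22.4) in the controls and 14.3 to 22.5 CPM (median 17.5) in the stimulated mice (-0.31 ± 0.06, adjusted p = 0.00664); its span overlaps *Mbd5* and *Acvr2a*, which stood at -0.13 and -0.29. These 3 were the called genes of 29 in the cell cycle list, all lower, with a median of -0.08. Of the 29, 23 lay below 0 and 6 above, where 7106 of all 13505 genes tested lay below 0. *Aurka* at 0.07 and *Mcm2* at 0.08 were among the 6, and neither passed. *H4c9*, a histone H4 gene, ran from 10.8 to 17.8 CPM (median 13.6) in the controls and 4.99 to 14.6 CPM (median 9.33) in the stimulated mice (-0.53 ± 0.11, adjusted p = 0.0141). The zinc finger genes that follow were put together after their values were seen. *Zfp97* (chr17:17121108-17147138) ran from 4.62 to 9.12 CPM (median 7.88) in the controls and 3.16 to 6.59 CPM (median 5.66) in the stimulated mice (-0.50 ± 0.10, adjusted p = 0.00664), *Zfp960* from 6.34 to 11.4 CPM (median 8.25) in the controls and 3.62 to 8.18 CPM (median 6.38) in the stimulated mice (-0.46 ± 0.10, adjusted p = 0.0271), and *Zfp934* from 1.04 to 2.18 CPM (median 1.86) in the controls and 0.715 to 1.60 CPM (median 0.928) in the stimulated mice (-0.53 ± 0.11, adjusted p = 0.016), with the pseudogene *Znf41-ps* at -0.43 ± 0.11. *Zfp97* and *Zfp960* lie 31476 bases apart on chromosome 17, and such zinc finger genes are similar to their copies in sequence, so reads may be shared. *Tpx2* and *Mylk2* are 15959 bases apart on chromosome 2. *B230312C02Rik* (chr2:180370858-180385885) ran from 9.37 to 29.9 CPM (median 15.8) in the controls and 1.39 to 20.5 CPM (median 5.35) in the stimulated mice, a difference of -1.43 ± 0.28 (SE, adjusted p = 0.0076). It shares 282 bases with *Mir1a-1hg*, the host transcript of the muscle microRNA miR-1a, which stood at 0.14. *Cdh4*, a cadherin, had a difference of -0.87 ± 0.22 (SE, adjusted p = 0.0471) with no stimulated mouse below every control. *Cbfb*, the partner of Runx factors (-0.33 ± 0.08), *Tmcc2* (-0.32 ± 0.08), *Necab1* (-0.65 ± 0.15), *Prss55* (-0.62 ± 0.16) and *2610035D17Rik* (-0.63 ± 0.15) were also lower.

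**Figure D1:**
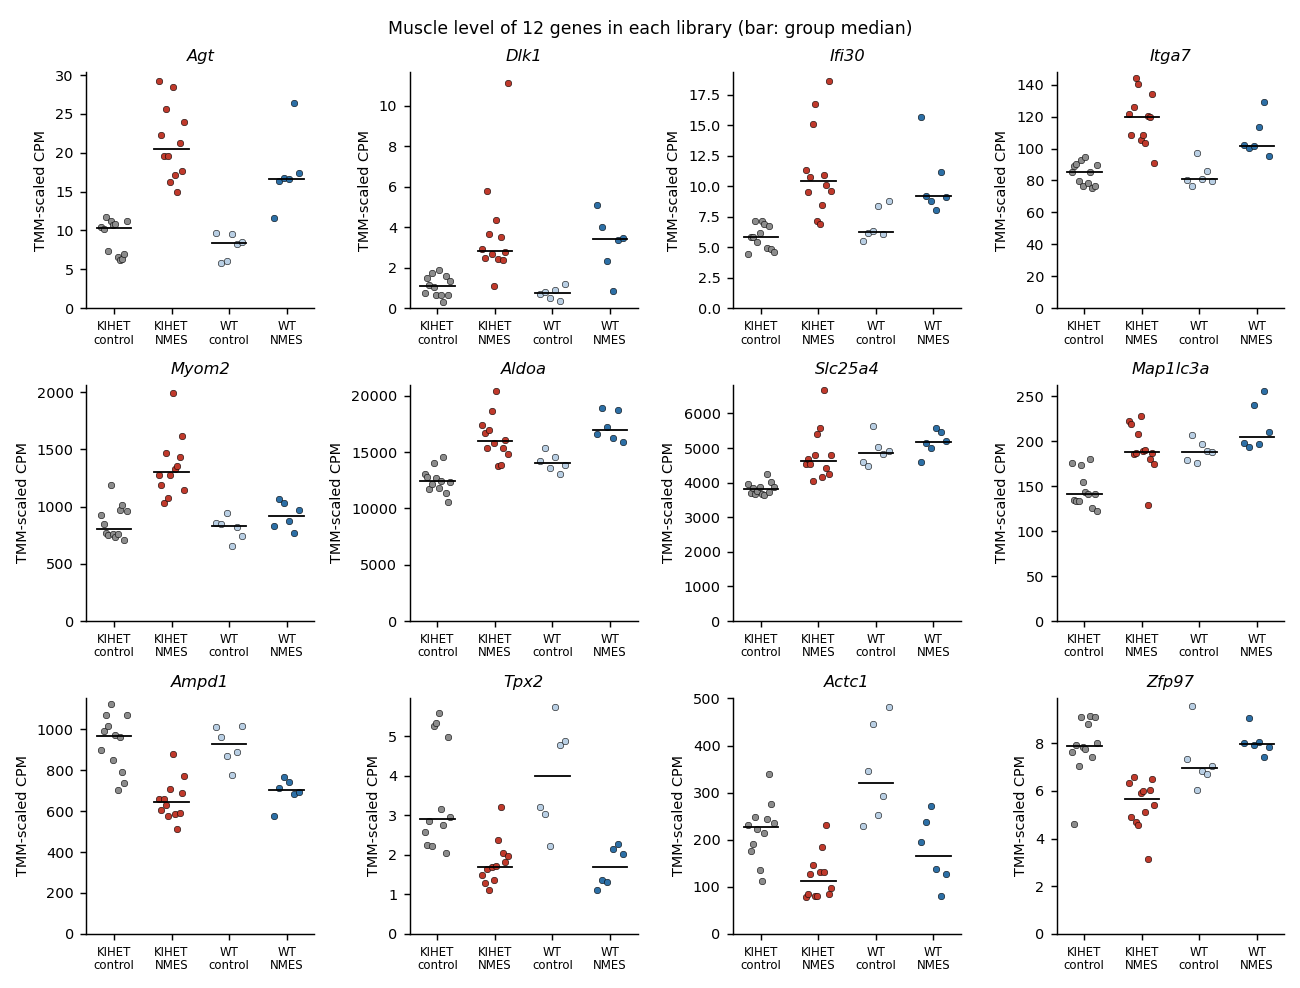
TMM-scaled CPM (y axis) of 12 genes in every muscle library, by group (x axis: KlHET control and NMES with 12 mice each, WT control and NMES with 6 each); points are libraries and bars are group medians. The KlHET NMES points of *Agt* start at 14.9 CPM, above the highest control at 11.7 CPM, while the other 11 genes overlap.

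Lists of connective tissue, vessels and interferon response had medians below 0, and no member of them passed. The 51 genes of extracellular matrix and collagens had a median of -0.21 with 46 below 0 (-0.38 in WT mice). *Fbn1* (fibrillin, -0.68 ± 0.21), *Aspn* (asporin, -0.45 ± 0.12, adjusted p = 0.0681), *Col3a1* (-0.46) and *Col1a1* (-0.21 ± 0.26) were among them. The 26 endothelial markers had a median of -0.24 with 25 below 0, from *Aplnr*, the apelin receptor, at -0.80 ± 0.24 and *Cdh5* (VE-cadherin) at -0.50 ± 0.19 to *Tal1* at 0.06. Their summed level ran from 1041 to 2211 CPM in the controls (median 1598) and 991 to 1786 CPM in the stimulated mice (median 1234), so the groups overlapped. The 17 markers of fibro-adipogenic progenitors, the connective tissue cells of muscle, had a median of -0.23, all below 0, with a median summed level of 2084 CPM in the controls and 1626 CPM in the stimulated mice and overlapping ranges. In bulk tissue, fewer cells of a type and less RNA per cell cannot be told apart. *Cxcl12*, which stromal and endothelial cells express, fell beside these markers, and their part in its fall was not tested. Interferon-stimulated genes had a median of -0.27 with 26 of 28 below 0, 10 of them at an unadjusted p under 0.05, and *Rsad2* (-0.60 ± 0.16, adjusted p = 0.0603) and *Ifit3b* (-0.54 ± 0.17) led. With total-count scaling the medians of matrix, endothelial and interferon genes were -0.24, -0.27 and -0.30, against -0.04 for all genes.

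Markers of blood and immune cells were low and showed no called gene. Macrophage markers summed to 73.6 to 256 CPM in the controls and 57.9 to 369.7 CPM in the stimulated mice, with a median difference of -0.03 over 22 genes. Neutrophil markers summed to 0.109 to 15.6 CPM and 0.682 to 14.0 CPM, and 5 of 12 were measured. The 4 measured T and B cell markers had a median of -0.08, the 5 erythrocyte markers of -0.23, the 13 nerve and Schwann cell markers of 0.10 and the 13 tenocyte markers of -0.10. Of 18 fibre markers 2 passed, *Ttn* and *Des*, with a median of 0.15. Of 14 smooth muscle and pericyte markers *Des* passed, while *Rgs5*, which pericytes express, stood at -0.57 ± 0.17. At 24 h after the last session no gene was called among the 23 immediate early genes (median -0.04, *Fosb* -0.68 ± 0.37, *Atf3* 0.65 ± 0.31), the 21 PGC-1 and mitochondrial regulators (median 0.05, *Ppargc1a* 0.26 ± 0.08) or the 19 clock genes (median -0.02). Nor was a gene called among 37 antioxidant enzymes, 17 genes of the neuromuscular junction, 13 polyamine genes, 12 gamma protocadherins (median -0.23) or 25 genes of fatty acid synthesis and insulin response, where *Scd1* stood at 1.07 ± 0.33. *Dlk1* and *Des* passed among 24 myogenic genes, with *Pax7*, the satellite cell factor, at -0.45, and *Actc1* among 26 genes of load and growth, with *Mustn1* at 0.81 ± 0.25. Of 24 listed genes, drawn from those that the study named in muscle on these same samples and so no independent evidence, *Agt*, *Dlk1* and *Myom2* were higher and *Mylk2* was lower.

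**Figure D2:**
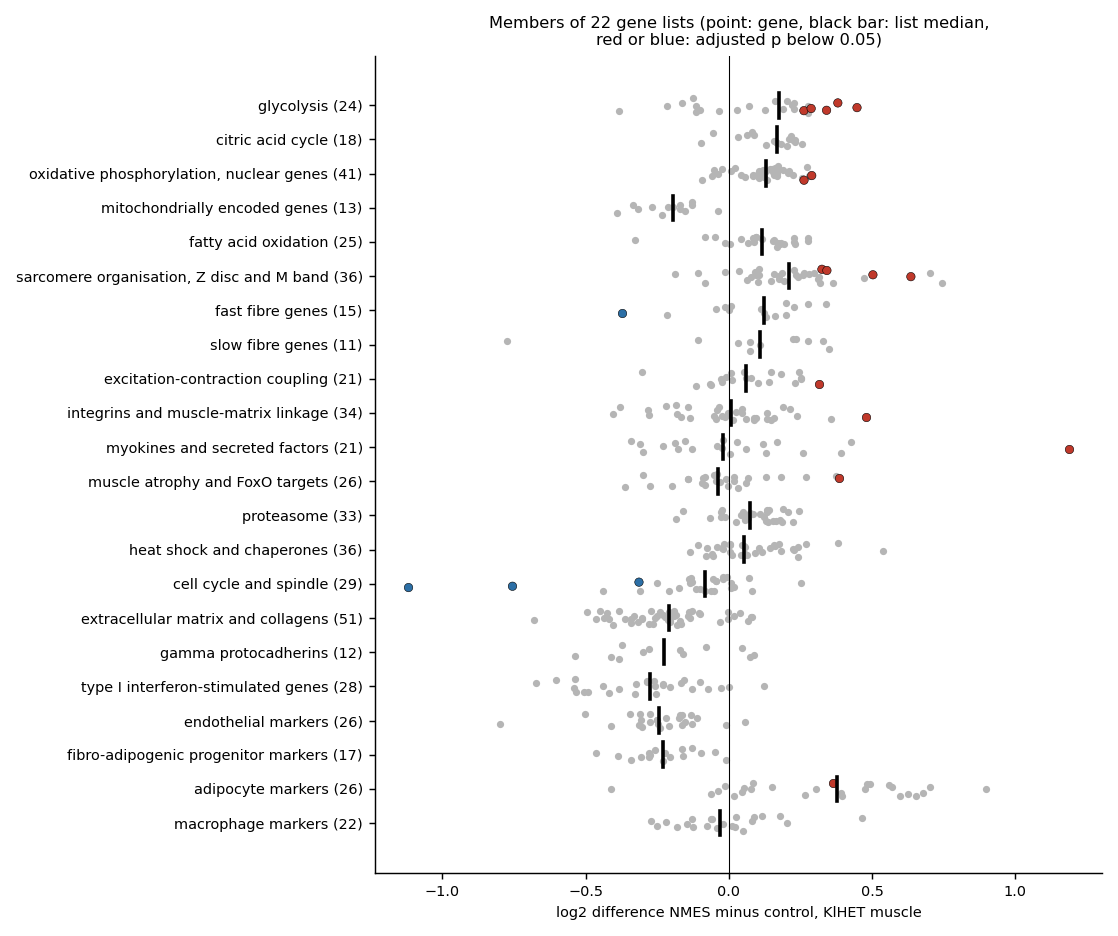
Log2 difference of NMES minus control in KlHET muscle (x axis) for every measured member of 22 gene lists (rows, with the number of genes); points are genes, black bars list medians, and red or blue points genes with an adjusted p below 0.05. Glycolysis (median 0.18) and the sarcomere list (median 0.21) hold 5 and 4 higher genes, while the matrix and endothelial lists (medians -0.21 and -0.24) hold none.

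The mice differed in how much of the pattern they carried. In each stimulated KlHET mouse 57 to 65 of the 65 higher genes lay above the control mean and 19 to 22 of the 22 lower genes lay below it. NMES replicate 8 was the weakest for the higher genes, at 57 genes and a median of 0.17, and replicates 5 and 7 were the strongest, at 0.47 each. Of the 28 genes that no longer passed without NMES replicate 9, those described above were *Tmcc2*, *Znf41-ps*, *Stbd1*, *Ndufv1*, *Atp5mc1*, *Mylk2*, *Pnpla2*, *Mpi*, *Ctsf*, *Mrpl51*, *2610035D17Rik*, *Aldoart1*, *Tex264*, *Pdhb*, *Atp1b2*, *Cdh4*, *Pmm1*, *Ddx1*, *Prss55*, *Cbfb*, *Malat1* and *Saraf*. None of the 28 changed sign. NMES replicate 9, the library with few mitochondrial reads, had 59 and 22 genes on the respective sides and the lowest median of the lower genes, -0.73. Among controls, replicate 9 had 53 of the 65 genes above the control mean, where the other 11 had 22 to 47. Since these genes were chosen for the difference between these libraries, their separation is no evidence of its own. In the WT mice, whose libraries entered the variances of the fit but not the KlHET difference, 50 to 61 of the 65 genes lay above the WT control mean and 14 to 18 of the 22 below it.

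**Figure D3:**
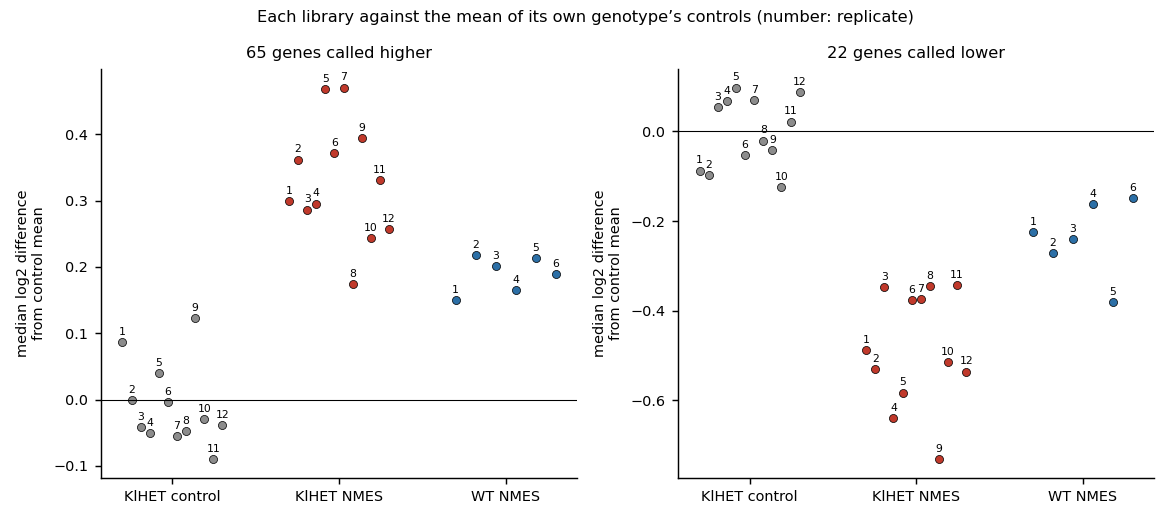
Median log2 difference from the control mean of the same genotype (y axis) over the 65 higher genes (left) and the 22 lower genes (right), 1 point per library with its replicate number, for KlHET control, KlHET NMES and WT NMES mice (x axis). The genes were chosen by the KlHET difference in a fit whose variances also used the WT libraries. The 6 WT NMES libraries lie between 0.15 and 0.22 on the left and between -0.38 and -0.15 on the right.

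The 87 genes were then read in the WT mice. No WT library enters the KlHET difference, but the WT libraries entered the variances by which the 87 were called, and 28 genes passed with the KlHET libraries alone in the fit. On the same side were 63 of the 65 higher genes and 18 of the 22 lower genes, 81 of 87 or 93.1%, where 65.8% of all genes tested had the same sign in both genotypes. The median difference of the higher genes was 0.33 in KlHET and 0.19 in WT mice, and that of the lower genes -0.50 and -0.20. Since the genes were chosen by their KlHET values, the larger medians there are set in part by the choice. At an unadjusted p under 0.05, 34 of the higher and 9 of the lower genes moved the same way in WT, beside 679 higher and 521 lower among all 13505 genes there. The WT p values and the choice of the 87 rest on the same variances. The genotypes' responses differed at an adjusted p under 0.05 for no gene (0%), by limma on the interaction, and at an unadjusted p under 0.05 for 475 genes where 675 would be counted by chance. DESeq2 and the quasi-likelihood test also called 0. Among the 87, 20 had an unadjusted interaction p under 0.05. The KlHET difference by which they were chosen is part of the interaction, so this count too is set in part by the choice. Some genes ran side by side. *Agt* gave 1.19 ± 0.13 in KlHET and 1.07 ± 0.18 in WT mice (difference 0.12, 95% interval -0.33 to 0.57), and *Itga7* 0.48 ± 0.06 and 0.35 ± 0.09 (difference 0.13, -0.10 to 0.35). Others had lower WT values, none with an interaction past adjustment, and that of *Myom2* matched the WT median of the higher genes. *Myom2* gave 0.64 ± 0.09 and 0.19 ± 0.13 (difference 0.45, 0.13 to 0.77), *Car14* 0.60 ± 0.09 and 0.15 ± 0.13, *Slc25a4* 0.32 ± 0.06 and 0.07 ± 0.09, and *Pnpla2* 0.36 ± 0.09 and 0.04 ± 0.13. For *Aimp2* the WT value was the larger (difference -0.50, -0.89 to -0.10). *Zfp97* and *Zfp960* had opposite signs in the genotypes, -0.50 ± 0.10 and 0.15 ± 0.14 for *Zfp97* and -0.46 ± 0.10 and 0.21 ± 0.15 for *Zfp960*, with unadjusted interaction p values of 0.000376 and 0.000794 and adjusted p values of 1 for both by limma. Standard errors were larger in WT mice, with 6 a group, so a call in one genotype alone is no difference between them.

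**Figure D4:**
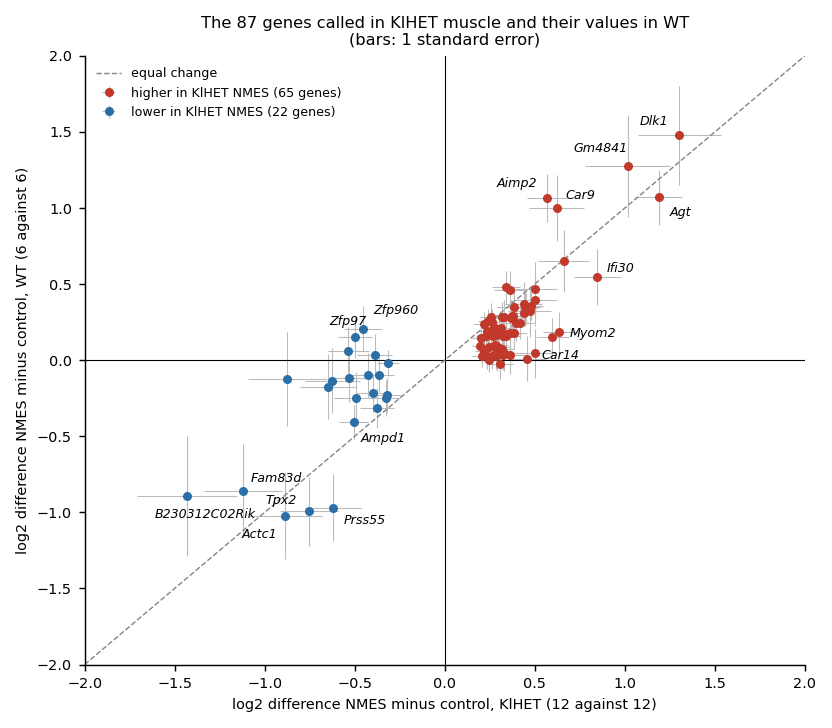
Log2 difference NMES minus control in WT muscle (y axis, 6 against 6 mice) against that in KlHET muscle (x axis, 12 against 12) for the 87 genes called in KlHET mice; bars are 1 standard error and the dashed line marks equal change. On the WT side, 63 of 65 red points lie above 0 and 18 of 22 blue points below 0, with *Zfp97* and *Zfp960* among the 4 blue points above.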

How the data were processed

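Total RNA of each tissue was read in pairs. According to the study's methods and its labels, mapping to mm10 used Rsubread, gene names came from org.Mm.eg.db and counts went through edgeR 4.0.16. The authors deposited CPM, reads scaled to a common library total, for 13543 muscle genes. Their log2 CPM average was not used, and 0 columns of sample values lacked a sample. Groups came from the labels for tissue, genotype and treatment.

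All deposited CPM values (100%, tolerance 1e-06) were whole multiples of 1 read, so reads and depths were recovered. Genes passing edgeR's filterByExpr (13505) were log-transformed as log2(CPM + 0.5) after TMM scaling and fitted in R 4.3.3 with limma 3.58.1, with 4 group means over 36 muscle libraries, trend and robust variances, 2-sided tests and Benjamini-Hochberg adjustment over all genes. TMM factors ran from 0.888 to 1.23 in the KlHET libraries. The interaction was tested in the same fit. Each library is 1 animal. Alternatives were other scalings, pseudocounts of 0.1 and 2, no filter, DESeq2 1.42.0 and quasi-likelihood tests on recovered reads, voom, an *Xist* covariate, KlHET libraries alone, and each library left out. On simulated data of the KlHET comparison with 200 changed genes among 13505, 71% were recovered at 1.5-fold and 88.5% at 2-fold. For the interaction the shares were 30.5% and 65%. Changes under 1.5-fold, the size of most of those called, were not simulated, so the shares do not cover them.

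The members and lists were chosen with earlier results of these data known, so counts over lists are descriptions. Genes were named by rule: up to 15 in each direction by p, list members past the threshold, the nearest members of lists with none, 24 of the genes the study named in muscle, abundant markers and leading interaction genes. Other called genes, *Nnt* and neighbours were named after their values were seen. RefSeq positions and promoters (GRCm38.p6, the build of mm10) were matched by gene ID. Of the 87 called genes, 28 overlap another gene in span, 10 of them one that was tested, and the sources used here do not say whether reads were counted by strand. Results for some genes are not reported here.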

Additional observations from a re-analysis of the deposited data

Results flagged for a closer look

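Among 60 groups of 6 WT libraries examined for the leading genes, 4 held a library far from the others, where chance gives about 1 in 20. *Gapdh-ps15* stood at 182 CPM in WT control replicate 3, *Aimp2* at 417 CPM in WT NMES replicate 5, *Zfp97* at 9.58 CPM in WT control replicate 2 and *Tmcc2* at 52.6 CPM in WT control replicate 5. The KlHET groups, with 12 libraries each, were not examined in this way.

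The *Zfp97* difference had opposite signs in the genotypes, negative in KlHET and positive in WT mice. The WT NMES range, 7.41 to 9.06 CPM, lay inside the WT control range, 6.06 to 9.58 CPM, so a rise in WT mice was not shown. The response of KlHET mice minus that of WT mice was -0.65 on the log2 scale (limma, unadjusted p = 0.000376), and it did not pass after adjustment over all genes (adjusted p = 1).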

How the results depend on the processing

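The count of genes that passed in KlHET muscle, 87 (65 higher and 22 lower), depended on the scaling and on single libraries. It was 36 (17 and 19) with total-count scaling, 28 (21 and 7) with KlHET libraries alone in the fit, 248 (205 and 43) with DESeq2 and 148 (109 and 39) with an *Xist* covariate. Leaving out 1 KlHET library gave 42 to 153: 42 without control replicate 12, 49 without control 7, 53 without control 8 or NMES 6, 55 without control 3 or 11, 56 without control 10, 57 without control 4, 143 without control 9 and 153 without NMES 8. The cause was not tested. Of the 87 genes, 35 passed with total-count scaling, 84 by the quasi-likelihood test, 76 by voom, and none changed sign under any of these settings. The WT count, 2, was 16 with DESeq2, 34 with voom, 8 with the *Xist* covariate and 1 to 5 with 1 WT library left out. The interaction gave 0 under every alternative run. The difference in mitochondrial share, -2.58 percentage points, was -0.864 as a difference of medians and -0.988 without NMES replicate 9. Genes that had not passed changed sign in a few fits: *Erfe* without control 3, *Mmp9* without control 8, control 9, NMES 12 or NMES 11, and *Pcdhga4* with voom (-0.026) or without NMES 5. Their ranges with 1 KlHET library left out were -0.018 to 0.13, -0.085 to 0.28 and -0.037 to 0.11. No paired analysis was run, since stimulated and control mice were different animals. Depth limits scarce genes such as *Necab1* and *Fam83d*, and DESeq2 gave no adjusted p for 17 of the 87.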
